A study of Homo sapiens with 4 samples.

Results

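Collagens are triple-helical proteins of the extracellular matrix, built from α chains whose Gly-X-Y repeats wind around each other, and each chain is encoded by its own gene. Fibrillar collagens form the banded fibrils of connective tissue, network-forming type IV collagen is the scaffold of basement membranes, and fibril-associated collagens with interrupted helices (FACIT) sit on fibril surfaces. In the healthy liver most fibrillar collagen is made by stellate cells and fibroblasts, type IV collagen lines vessels and bile ducts, and tumour cells can make collagen chains of their own.

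The genes described here are the protein-coding genes whose symbol has the form COL, a type number, A and a chain number, such as COL5A2. The FPKM table held 44 of them among 58735 genes, from 28 collagen types in 8 classes: 11 fibrillar, 10 FACIT, 9 network-forming, 5 beaded-filament (type VI), 4 transmembrane, 2 multiplexin (types XV and XVIII), 1 anchoring-fibril (type VII) and 2 other chains. Of the 44 chains, 29 had at least 10 reads in at least 1 library and were tested, and 22 had at least 100 reads in at least 1 library. The other 15 were not tested. COL11A1, COL6A5, COL23A1, COL19A1 and COL9A1 had 0 reads in all 4 libraries, which allows up to 0.0885 CPM in the PBS library (CPM, the reads of a gene scaled to the library's reads on all genes), and 10 more had between 1 and 9 reads in their highest library.

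RNA was sequenced from MHCC-97H, a human hepatocellular carcinoma line of high metastatic potential, after 24 h with PBS or with 2 µg of migrasomes (Migs), the vesicles that migrating cells leave on their retraction fibers. Normo-Migs came from MHCC-97H cells in normoxia, hypo-Migs from the same line in hypoxia, and CD147KO-Migs from hypoxic MHCC-97H cells in which CD147 had been knocked out. The recipient cells were labelled wild type in all 4 conditions and shared a batch label. The labels do not say which of several O2 and glucose levels the donor cells had, nor whether the knockout line was a single clone. Each condition had 1 library, so there is no replicate error: each test compares the reads of a pair of libraries, not the conditions, and intervals cover counting error only. In bulk RNA, fewer cells of a type and less RNA per cell cannot be told apart.

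The libraries held 33882496 to 40285223 reads on genes. The PBS library stood apart, with a Pearson r of 0.942 to 0.943 to the Mig libraries on log2(CPM + 1) over the genes tested, against 0.996 to 0.997 among the Mig libraries. It had 251 genes at 3 reads or fewer that had at least 100 in every Mig library, with 0 collagen chains among them, and 2.69% mitochondrial reads against 5.00% to 5.16%. Every comparison with PBS rests on this library, and the pairs of Mig libraries are the comparisons without it. Of the hepatocyte markers listed, ALB, AFP, APOB and TTR had 0 reads in all 4 libraries, whereas the epithelial keratin KRT8 had 105571 to 167573 reads. Of the 7 listed hepatocyte markers tested, 2 were higher and 1 lower than PBS in every Mig library: FGB had 0 reads against 561 to 832, APOH 0 against 10 to 21 and SERPINA1 25 against 2 to 10. BSG, which encodes CD147, had 921 to 1421 CPM in the recipient cells, which is no check of a knockout made in the donor cells.

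The repeat that gives the triple helix its shape is visible in the short exons of fibrillar collagen genes, and it is shown for the main chain genes of types V and I, fibrillar collagens whose chains were read at unequal levels in these libraries. Fibrillar genes hold many exons of 54 bases, each of which can hold 6 Gly-X-Y triplets. In the longest coding transcript of GENCODE 29, COL5A1 had 29 exons of this length among 66, COL5A2 24 among 54 and COL1A1 21 among 51. The sequences below are read 5′ to 3′ on the coding strand from GRCh38, and capitals mark the GG of the glycine codon that opens each Gly-X-Y triplet, and any further glycine codon is in lower case. The exons are exon 15 of COL5A1 at chr9:134753850-134753903 on the plus strand, exon 6 of COL5A2 at chr2:189097277-189097330 on the minus strand, exon 8 of COL1A1 at chr17:50197949-50198002 on the minus strand and exon 8 of COL1A2 at chr7:94404693-94404746 on the plus strand.
COL5A1: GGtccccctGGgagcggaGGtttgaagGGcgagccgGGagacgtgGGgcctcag
COL5A2: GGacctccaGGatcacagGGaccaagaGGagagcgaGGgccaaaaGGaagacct
COL1A1: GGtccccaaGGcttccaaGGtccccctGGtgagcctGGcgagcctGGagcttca
COL1A2: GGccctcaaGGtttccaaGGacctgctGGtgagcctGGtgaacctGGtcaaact
The longest run of glycine codons at this spacing was 338 in COL5A1, 339 in COL5A2 and 338 in COL1A1, and it ranged from 216 to 343 over the fibrillar chains. In the FACIT chains it ranged from 32 to 113 and in the network-forming chains from 38 to 66.

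A second set of sequences lies upstream of 4 chain genes whose reads differed between the PBS and Mig libraries. They are the parts of the bases just before each RefSeq gene start in GRCh38.p14 that lie outside annotated exons, read 5′ to 3′ on the strand of the gene, with CG dinucleotides in capitals. The COL4A3 stretch, chr2:227164454-227164564 on the plus strand, is the whole of the 111 bases between the gene models of COL4A3 and its neighbour COL4A4, which is read from the opposite strand. COL4A5, chrX:108439588-108439837 on the plus strand, has the same arrangement with COL4A6. COL6A2, chr21:46097862-46098096 on the plus strand, and COL17A1, chr10:104085958-104086130 on the minus strand, stand for the chains with large differences in opposite directions.
COL4A3: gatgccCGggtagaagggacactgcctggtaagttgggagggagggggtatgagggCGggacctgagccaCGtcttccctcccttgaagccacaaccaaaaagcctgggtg
COL4A5: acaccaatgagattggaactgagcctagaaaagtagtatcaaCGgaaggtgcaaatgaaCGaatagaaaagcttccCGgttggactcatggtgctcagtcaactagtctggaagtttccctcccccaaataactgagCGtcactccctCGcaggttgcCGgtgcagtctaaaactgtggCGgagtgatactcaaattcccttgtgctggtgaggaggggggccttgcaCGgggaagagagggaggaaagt
COL6A2: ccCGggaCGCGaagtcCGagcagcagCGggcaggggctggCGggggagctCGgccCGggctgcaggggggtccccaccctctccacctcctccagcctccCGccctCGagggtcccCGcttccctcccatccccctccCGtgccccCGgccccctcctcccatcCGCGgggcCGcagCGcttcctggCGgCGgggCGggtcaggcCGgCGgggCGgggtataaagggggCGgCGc
COL17A1: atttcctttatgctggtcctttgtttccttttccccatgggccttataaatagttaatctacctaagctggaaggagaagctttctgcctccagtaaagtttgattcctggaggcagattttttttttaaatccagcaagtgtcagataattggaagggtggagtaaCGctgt
The COL6A2 stretch holds 25 CG in 235 bases and that of COL17A1 holds 1 in 173.

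Collagen chains took 0.134% of the reads on genes in the PBS library (95% Wilson interval 0.133% to 0.136%) and 0.251% to 0.252% in the Mig libraries. The difference lay mostly in the fibrillar class. Of the collagen reads, fibrillar chains held 15.7% in the PBS library and 44.8%, 45.2% and 43.1% in those of normo-Migs, hypo-Migs and CD147KO-Migs. The FACIT share was 27.03% with PBS and 14.2% to 14.8% with Migs, and the network-forming share was 29.6% with PBS and 20.3% to 20.5% with Migs. As a share of all reads the FACIT block hardly differed between the bars of the plot of collagen reads by class, because COL12A1 makes up nearly all of it.

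The order of the chains differed as well. By FPKM, which divides reads by gene length, the highest chains in the PBS library were COL12A1 at 28.05, COL6A1 at 20.1, COL7A1 at 18.9 and COL5A1 at 14.8. In each Mig library the first place was held by COL5A2 at 58.2 to 60.5 FPKM and the next by COL5A1 at 44.4 to 50.1. COL12A1 followed at 28.1 to 28.6 FPKM. These places depend on the length used: per coding length, COL4A2 came first in the PBS library and COL5A1 came before COL5A2 with normo-Migs. The deposited gene length of COL4A2 is 19293 bases, whereas its coding sequence is 5139.

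Against the PBS library, 13 of the 29 chains tested were past the criteria in the higher direction with normo-Migs, where 16.5% of all genes tested were, and 4 in the lower direction, where 10.7% were. The criteria were a log2 fold change of 1 or more in size and an adjusted p of at most 0.05 from the exact binomial test of edgeR, with Benjamini-Hochberg adjustment over 19895 genes. With hypo-Migs the counts were 15 higher (17.5% of all genes) and 5 lower (10.9%), and with CD147KO-Migs 14 higher (16.6%) and 5 lower (10.9%). The median log2 fold change of the 29 chains was 0.86, 1.03 and 0.84 in these comparisons, and that of all genes tested was between 0.03 and 0.04. The 3 comparisons share the PBS library. Higher in all 3 were 12 chains: COL1A1, COL5A1, COL5A2, COL4A3, COL4A6, COL6A2, COL9A3, COL13A1, COL15A1, COL18A1, COL25A1 and COL26A1. Lower in all 3 were COL4A4, COL8A2, COL9A2 and COL17A1. COL13A1, COL25A1 and COL26A1 reached the 10 reads needed for testing only in the Mig libraries, and COL8A2 only in the PBS library. A further 5 chains passed in some of these comparisons: COL4A5 (hypo-Migs and CD147KO-Migs), COL8A1 (normo-Migs and hypo-Migs), COL5A3 (hypo-Migs) and COL27A1 (CD147KO-Migs) were higher, and COL24A1 (hypo-Migs and CD147KO-Migs) was lower. The other 8 passed in none: COL3A1, COL4A1, COL4A2, COL6A1, COL7A1, COL11A2, COL12A1 and COL16A1.

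**Figure D1:**
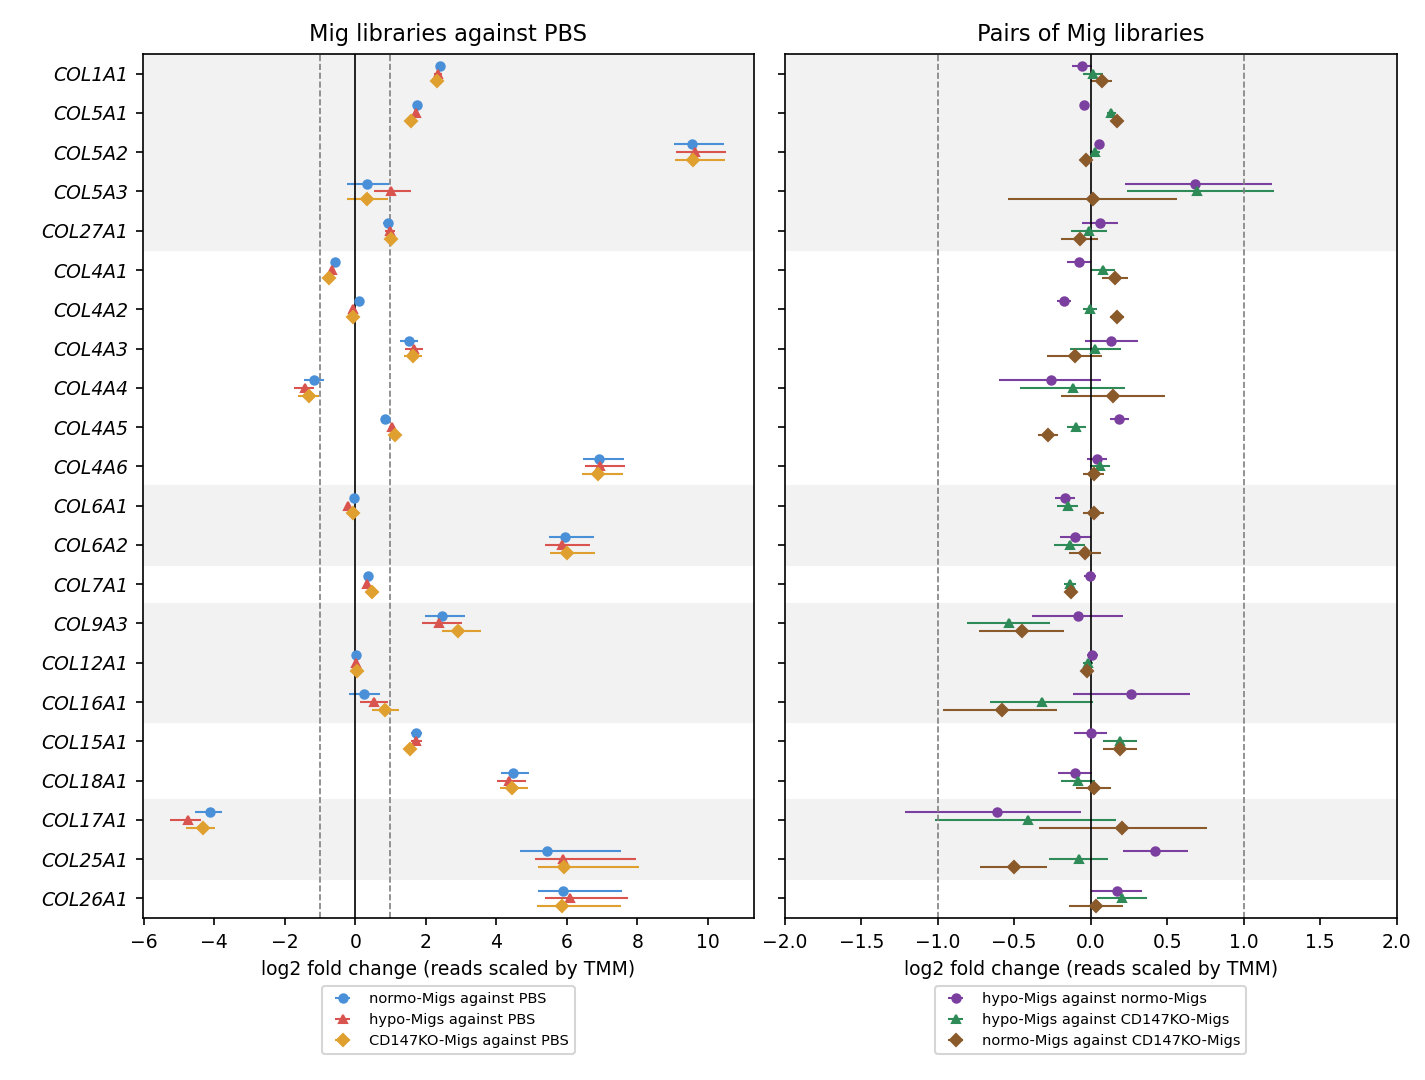
Log2 fold changes with exact 95% intervals (x axes) for the 22 chains with at least 100 reads, by class in the order of the plot of levels. Left, each Mig library against PBS; right, the pairs of Mig libraries on a narrower axis. Dashed lines mark the criterion of 1. COL5A2 lies furthest right and COL17A1 furthest left, and no chain drawn on the right has its point beyond a dashed line.

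Type V collagen, a fibrillar collagen that is found within type I fibrils and helps to start them, showed the largest difference of the whole family. COL5A2 (ENSG00000204262, chr2:189031896-189225312, minus strand), the gene of its α2 chain, had 18 reads in the PBS library, and its reads numbered 14903 after normo-Migs, 18267 after hypo-Migs and 15633 after CD147KO-Migs. It was thus among the lower tested chains in the PBS library and first by FPKM in each Mig library. The difference was 839-fold with normo-Migs (log2 9.56, 95% interval 9.05 to 10.47), 873-fold with hypo-Migs and 856-fold with CD147KO-Migs.

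COL5A1 (ENSG00000130635, chr9:134641774-134844843, plus strand), the gene of the α1 chain, was already well read with PBS. It had 5742 reads there and 19283, 22079 and 17552 reads with normo-Migs, hypo-Migs and CD147KO-Migs, or 169, 558, 548 and 501 CPM. All Mig libraries lay above PBS, by 3.40-, 3.31- and 3.01-fold. COL5A3, the gene of a further type V chain, stayed low, at 45, 57, 109 and 58 reads in the same order. Only the hypo-Migs library stood above the rest, with a log2 fold change over PBS of 1.03 (0.55 to 1.59; edgeR exact binomial, adjusted p = 4.46e-05). The FPKM ratio of COL5A2 to COL5A1 was 0.00471 with PBS (exact 95% interval 0.00279 to 0.00744) and 1.16, 1.24 and 1.34 with normo-Migs, hypo-Migs and CD147KO-Migs.

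Type I collagen, the main fibrillar collagen of most tissues, was represented by one of its chain genes. COL1A1 (chr17:50183289-50201632, minus strand) had 681, 3551, 4017 and 3472 reads in PBS, normo-Migs, hypo-Migs and CD147KO-Migs, or 2.01, 10.5, 10.1 and 10.0 FPKM. The Mig libraries lay close together, 5.02- to 5.28-fold above PBS. COL1A2 (chr7:94394561-94431232, plus strand), which encodes the partner chain of the usual type I heterotrimer, had 2 reads with PBS and 0 reads in each Mig library. Per deposited gene length, COL1A1 was at least 1315-fold higher than COL1A2 in each Mig library, taking the 3 reads that a count of 0 allows per library. Per coding length this bound was 1080-fold. The FPKM ratio of COL1A2 to COL1A1 with PBS was 0.00258 (0.000312 to 0.00937). COL3A1, the gene of the fibrillar type III chain, had 27, 14, 27 and 20 reads, and its intervals for all 6 pairs of libraries covered 0.

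The remaining fibrillar chains were lower. COL27A1, a long chain known from cartilage, had 557, 1051, 1292 and 1135 reads in PBS, normo-Migs, hypo-Migs and CD147KO-Migs. It lay at the criterion, with log2 fold changes over PBS of 0.93, 0.99 and 1.00, and passed with CD147KO-Migs alone. COL11A2 had 66, 33, 59 and 79 reads and COL24A1 8, 13, 1 and 0. COL2A1 and COL11A1, the defining chains of cartilage fibrils, had at most 4 and 0 reads.

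**Figure D2:**
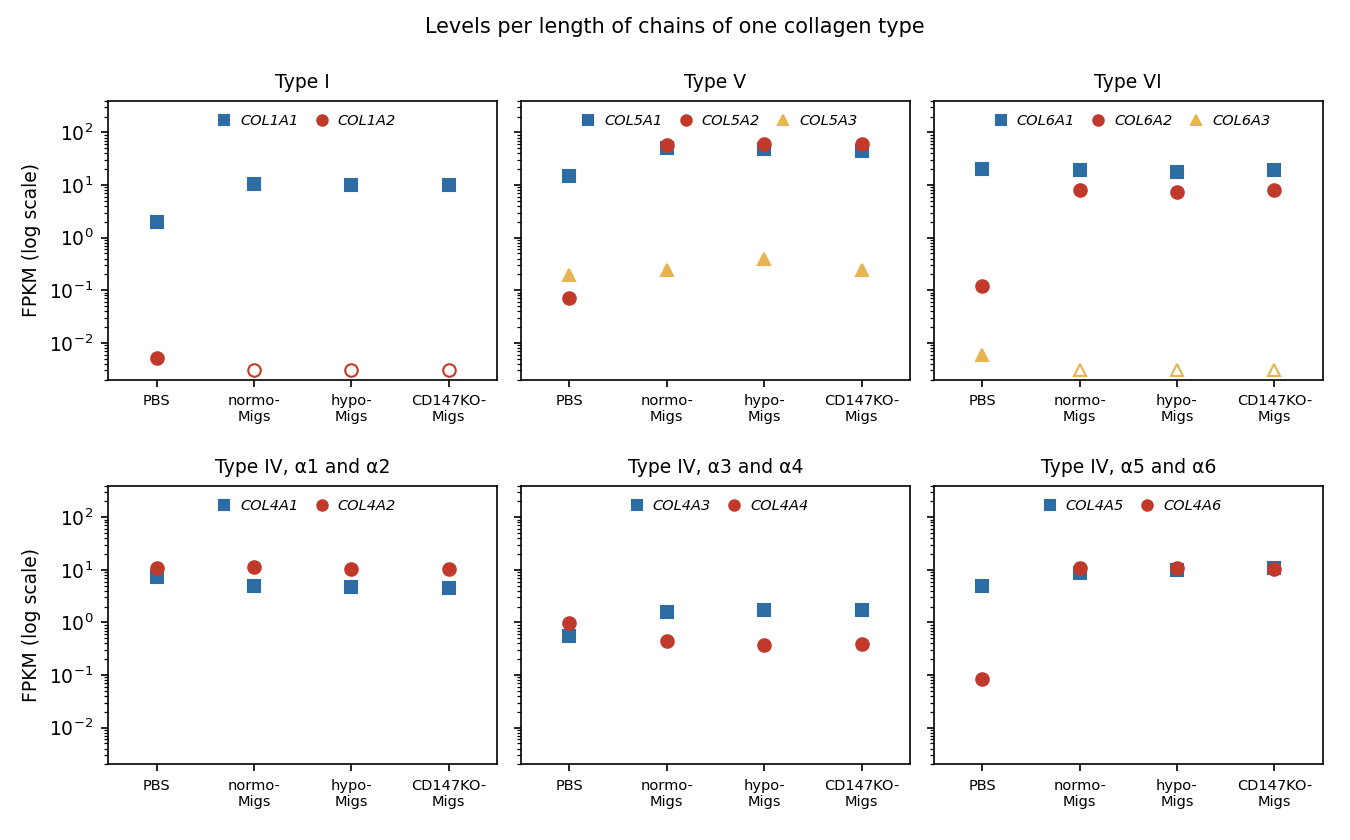
FPKM on a log scale (y axes) of chains of one collagen type in each library (x axes). Open symbols stand for values below 0.003 FPKM, drawn at 0.003. COL5A2, COL6A2 and COL4A6 lie far below their partners with PBS and near them in the Mig libraries, COL1A2 and COL6A3 are near the bottom throughout, and COL4A3 and COL4A4 exchange places.

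Type IV collagen is encoded by 6 genes in 3 pairs, and the members of each pair lie head to head on opposite strands. COL4A1 and COL4A2, whose products form the widespread network of basement membranes, passed the criteria in none of the comparisons. COL4A2 (chr13:110305812-110513209, plus strand) had 7115, 7624, 7951 and 6962 reads in PBS, normo-Migs, hypo-Migs and CD147KO-Migs. COL4A1 (chr13:110148963-110307233, minus strand) had 3784, 2506, 2799 and 2307 reads. COL4A2 differed little between the libraries, with log2 fold changes over PBS of 0.12, -0.06 and -0.05, whereas COL4A1 was lowest in the Mig libraries, with log2 fold changes of -0.58, -0.65 and -0.73 and intervals that excluded 0. The FPKM ratio of COL4A2 to COL4A1 was 1.44 with PBS (1.38 to 1.49) and 2.32, 2.17 and 2.31 with normo-Migs, hypo-Migs and CD147KO-Migs. The gene models overlap at their starts but share no exon bases.

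COL4A3 and COL4A4, the chains that form the network of the kidney's filtration barrier together with COL4A5, went in opposite directions across the 111 bases printed above. COL4A3 had 176, 502, 650 and 555 reads in PBS, normo-Migs, hypo-Migs and CD147KO-Migs, with log2 fold changes over PBS of 1.52, 1.66 and 1.62. COL4A4 had 347, 152, 149 and 141 reads, with log2 fold changes of -1.16, -1.42 and -1.31. All Mig libraries lay above PBS for COL4A3 and below it for COL4A4, and their FPKM ratio, COL4A4 to COL4A3, was 1.79 with PBS (1.48 to 2.15) and 0.274, 0.208 and 0.230 in the Mig libraries.

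In the pair on the X chromosome both genes were higher with Migs, by very different factors. COL4A6 (chrX:108155607-108439497, minus strand) had 27 reads with PBS and 3422, 4146 and 3471 with normo-Migs, hypo-Migs and CD147KO-Migs. It was near the floor with PBS and among the highest chains elsewhere, 127- to 132-fold above PBS. COL4A5 (chrX:108439844-108697545, plus strand) had 1999, 3581, 4801 and 4467 reads, or 1.81-, 2.07- and 2.20-fold over PBS, and passed with hypo-Migs and CD147KO-Migs. The FPKM ratio of COL4A6 to COL4A5 was 0.0173 with PBS and 1.22, 1.10 and 0.993 with normo-Migs, hypo-Migs and CD147KO-Migs. The gene models of this pair are 346 bases apart. Among the other network-forming chains, COL8A1 had 14, 43, 69 and 27 reads and COL8A2 14, 0, 2 and 0. COL8A2 was thus lower with Migs, by at least 4.61-fold with normo-Migs and at least 4.74-fold with CD147KO-Migs when the 0 is set to the floor of 3 reads. The exact 95% limits nearest to 0 were log2 -1.71 and -1.75. Type VIII collagen is known from vessel walls and the cornea, and COL10A1, a marker of hypertrophic cartilage, had at most 8 reads.

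Type VI collagen forms beaded filaments from chains encoded by COL6A1, COL6A2 and COL6A3, and the 3 genes behaved differently. COL6A1 (chr21:45981737-46005050, plus strand) had 3720, 3596, 3766 and 3648 reads in PBS, normo-Migs, hypo-Migs and CD147KO-Migs. COL6A2 (chr21:46098097-46132849, plus strand) had 22, 1474, 1621 and 1555 reads. COL6A3, the longest of the 3 chains, had 4, 2, 2 and 1 reads. COL6A1 was thus similar in all libraries (log2 fold change -0.20 to -0.03 against PBS), COL6A2 was 63.4- to 69.7-fold higher with Migs, and COL6A3 was at the floor throughout. The FPKM ratio of COL6A2 to COL6A1 was 0.00587 with PBS (0.00367 to 0.00890) and 0.407 to 0.427 in the Mig libraries. The FPKM ratio of COL6A3 to COL6A1 was 0.000293 with PBS (7.97e-05 to 0.00075) and 0.000151 with normo-Migs (1.83e-05 to 0.000547).

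Types XV and XVIII, the multiplexins, are basement-membrane collagens whose C-terminal fragments include endostatin. COL18A1 (chr21:45405137-45513720, plus strand) had 56, 1266, 1391 and 1283 reads in PBS, normo-Migs, hypo-Migs and CD147KO-Migs, 21.4- to 22.9-fold above PBS. COL15A1 (chr9:98943179-99070792, plus strand) had 411, 1355, 1596 and 1219 reads, 2.92- to 3.34-fold above PBS. Both multiplexins were thus higher in all Mig libraries, COL18A1 by the larger factor. COL18A1 shares 1401 exon bases (16.4% of its exons) with SLC19A1, which is read from the opposite strand and had 3108, 2252, 2294 and 1961 reads. Whether the counting used strand is not given in the sources used here.

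The transmembrane collagens moved in both directions. COL17A1 (ENSG00000065618, chr10:104031286-104085957, minus strand), a component of the hemidesmosomes that fix epithelial cells to their basement membrane, had 1117, 62, 47 and 55 reads in PBS, normo-Migs, hypo-Migs and CD147KO-Migs. It was the chain with the largest fold in the lower direction among those with at least 100 reads: 17.8-fold lower with normo-Migs (log2 -4.11, -4.55 to -3.78), 27.6-fold with hypo-Migs and 20.6-fold with CD147KO-Migs. COL25A1, known from neurons and muscle innervation, had 5, 296, 468 and 431 reads. It was 60.0-, 80.5- and 84.9-fold higher with Migs, with wide intervals because of the 5 reads (log2 4.67 to 7.54 with normo-Migs). COL13A1, found at adhesion sites and the neuromuscular junction, had 4, 80, 61 and 57 reads, and COL23A1 had none. COL26A1, which belongs to none of the named classes, resembled COL25A1 with 7, 525, 696 and 527 reads.

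COL12A1 hardly differed between the libraries, and COL7A1 differed by less than the criterion. COL12A1 (chr6:75084326-75206051, minus strand), the FACIT chain with the most reads, had 12107, 12056, 14305 and 12627 reads in PBS, normo-Migs, hypo-Migs and CD147KO-Migs, or 357, 349, 355 and 360 CPM. Its log2 fold changes over PBS were 0.01 (-0.02 to 0.05), 0.02 and 0.04, and the sign of the first turned with other scalings, to -0.03 for total reads. COL7A1, the gene of the anchoring fibrils that tie basement membrane to dermis, had 7239, 9105, 10692 and 10239 reads. All Mig libraries lay above PBS, by 1.27-, 1.27- and 1.39-fold, below the criterion. COL16A1, another FACIT chain, had 85, 101, 143 and 156 reads and was below the criterion too.

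Type IX collagen, a FACIT of cartilage, had chains that went in opposite directions. COL9A3 had 32, 183, 203 and 257 reads in PBS, normo-Migs, hypo-Migs and CD147KO-Migs, 5.45- to 7.91-fold over PBS. COL9A2 had 86, 11, 22 and 3 reads, 7.72-, 4.55- and 29.1-fold lower, the last with an interval of log2 -7.17 to -3.27. COL9A1, the remaining chain of the type IX trimer, had no reads.

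Across the Mig libraries the chains lay close together. Over the 22 chains with at least 100 reads, the highest scaled CPM of the Mig libraries was 1.02 to 1.64 times the lowest, with a median of 1.13. The PBS library lay below all Mig libraries in 17 of these chains, above all in 4 and between them in 1. The 17 include small differences: COL12A1, COL16A1 and COL5A3 had log2 fold changes of 0.01, 0.26 and 0.35 for normo-Migs against PBS. The same positions were not counted over all genes tested, where the PBS library stood apart too.

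Between hypo-Migs and normo-Migs, the comparison that asks what hypoxia of the donor cells changed, 0 of 29 chains were past the criteria in the higher direction (2.57% of all genes tested were) and 1 in the lower direction (2.34%). At an unadjusted p under 0.05, 11 chains differed in edgeR's exact binomial test, as did 35.9% of all genes tested, and 0 in DESeq2 (0.00503% of all genes). DESeq2 took its dispersion over all 4 libraries, so the difference of the PBS library counted as variation. Its 0 therefore says little about this pair. The chain past the criteria was COL24A1, with 1 read against 13 (log2 -2.47, -9.35 to -1.20; edgeR exact binomial, adjusted p = 0.0042). Among chains with at least 100 reads, COL5A3 had the largest value in the higher direction, with 109 against 57 reads (log2 0.68, 0.22 to 1.19), and COL17A1 in the lower, with 47 against 62 (-0.61, -1.21 to -0.07). COL25A1 had 468 against 296 reads (0.42, 0.21 to 0.64).

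Between hypo-Migs and CD147KO-Migs, the comparison that bears on CD147 in the donor cells, 2 chains were past the criteria in the higher direction (2.57% of all genes tested) and 0 in the lower (2.47%). COL9A2 had 22 against 3 reads (log2 2.11, 0.94 to 5.06; edgeR exact binomial, adjusted p = 0.00368). COL8A1 had 69 against 27 (1.10, 0.50 to 1.86; edgeR exact binomial, adjusted p = 0.00284). Both were low chains. None of the 22 chains with at least 100 reads was past the criteria, because none reached the fold criterion. The intervals of several of them excluded 0. The nearest to the fold criterion were COL5A3 with 109 against 58 reads (0.70, 0.24 to 1.20) and COL9A3 with 203 against 257 (-0.53, -0.81 to -0.27). Differences in the well-read chains were small in both directions: the interval of the log2 fold change was 0.11 to 0.16 for COL5A1, -0.00295 to 0.0588 for COL5A2, -0.05 to 0.08 for COL1A1 and -0.17 to -0.10 for COL7A1. At an unadjusted p under 0.05, 13 chains differed in this pair in edgeR's exact test, as did 36.1% of all genes tested, and 0 in DESeq2 (0.0201%). The DESeq2 dispersion again included the difference of the PBS library, so its 0 says little about this pair.

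Between normo-Migs and CD147KO-Migs, which differ in both the oxygen and the CD147 of the donor cells, 1 chain was higher (2.36% of all genes tested) and 1 lower (2.53%). COL24A1 had 13 against 0 reads, at least 4.45-fold higher when the 0 is set to the floor of 3 reads, and the exact 95% lower limit of its log2 fold change was 1.65. Here too it was tested only because of its reads in the normo-Migs library. COL11A2 had 33 against 79 reads (log2 -1.17, -1.85 to -0.62; edgeR exact binomial, adjusted p = 0.000349). COL25A1 with 296 against 431 reads (-0.50, -0.72 to -0.29) and COL16A1 with 101 against 156 (-0.58, -0.96 to -0.22) lay below the criterion. Of the chains past the criteria in a pair of Mig libraries, none had 100 reads in any library.

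Collagen chains need modifying enzymes and chaperones before they leave the cell. Of 14 tested genes of prolyl and lysyl modification, 2 were higher and 1 lower than PBS in every Mig library, and the median log2 fold change was -0.0049, -0.12 and -0.17 with normo-Migs, hypo-Migs and CD147KO-Migs, beside 0.03 to 0.04 for all genes tested. The shares of all genes past the criteria against PBS, 16.5% to 17.5% higher and 10.7% to 10.9% lower, are the background for the counts of this list and of those that follow, and the counts of this list and of the next are near or below them. P3H3, a prolyl 3-hydroxylase, had 18, 1082, 1252 and 1091 reads in PBS, normo-Migs, hypo-Migs and CD147KO-Migs, P4HA3, a catalytic subunit of prolyl 4-hydroxylase, 29, 390, 386 and 315, and P3H2 4107, 1828, 2196 and 1827. The genes with the most reads of this list passed in none of the comparisons: P4HB, COLGALT1, PLOD1 and CRTAP had log2 fold changes of -0.32, -0.27, -0.10 and 0.04 with hypo-Migs against PBS. Of 15 genes of folding and secretion, FKBP10, a prolyl isomerase, and CREB3L1, a transcription factor of secretory cells, were higher and SERPINH1 was lower than PBS in every Mig library, with list medians of 0.28, 0.31 and 0.23. SERPINH1 encodes HSP47, the collagen chaperone, and had 22575, 11024, 11407 and 9663 reads. Its reads were highest in the PBS library, where the collagen share of reads was lowest. HSPA5 and PDIA4, general chaperones of the endoplasmic reticulum, had log2 fold changes of 0.51 and 0.27 with hypo-Migs.

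Outside the cell, procollagen is cut, crosslinked and bound by receptors. Of 13 tested genes of processing and crosslinking, 5, 4 and 5 were higher and 3, 2 and 2 lower than PBS with normo-Migs, hypo-Migs and CD147KO-Migs, and the list medians were 0.24, 0.20 and 0.63. BMP1, the procollagen C-proteinase, had 1702, 5560, 6308 and 5864 reads and its enhancer PCOLCE 377, 2838, 3175 and 3333. The crosslinking enzyme LOX had 3940, 1642, 2244 and 1523 reads, lower with Migs, LOXL2 7144, 6650, 7462 and 6250, and TGM2 3829, 9059, 8191 and 7935. Of 10 collagen receptors, 3 were past the criteria against PBS in every Mig library, DDR2, MRC2 and ITGA11, each higher, and the list medians were 0.17, 0.26 and 0.38. DDR2, a receptor kinase for fibrillar collagen, had 54, 2243, 2536 and 2249 reads, and MRC2, an endocytic receptor, 745, 6451, 7429 and 6958. DDR1, the related epithelial receptor kinase, and ITGB1 and ITGA1, the subunits of a collagen-binding integrin, were not past the criteria against PBS. Of 6 tested proteoglycans of the fibril surface, DCN and LUM were higher than PBS with every Mig library. FMOD was lower, with 385 reads with PBS against 0 in each. BGN was also higher with hypo-Migs, with 19 reads against 2, and OGN lower with CD147KO-Migs, with 2 against 11. The list medians were 0.08, 1.03 and 0.77.

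Some markers of matrix-producing cells were higher in the Mig libraries and others were not. The summed level of 11 stellate cell and fibroblast markers was 8.06 CPM with PBS and 117, 131 and 135 CPM with normo-Migs, hypo-Migs and CD147KO-Migs, and of the 9 tested 6 were higher and 1 lower than PBS in every Mig library. PDGFRB had 70, 1747, 2446 and 2166 reads and THY1 11, 1681, 2082 and 1859, whereas PDGFRA had 0 or 1 and ACTA2 68 to 95, and POSTN had 10 reads with PBS and 0 with Migs. PDGFRB, at 50.5 to 61.8 CPM with Migs, and THY1, at 48.6 to 53.0 CPM, made up most of the summed level there. Summed levels of the endothelial list were 3.87 to 5.73 CPM and of the leukocyte list 1.62 to 2.63 CPM, with PTPRC at 0 to 2 reads. Single members differed in both directions. PECAM1 had 16 reads with PBS and 118, 146 and 131 with Migs. CD14 had 14 and 47, 78 and 86. Both were higher in every Mig library. TEK had 11 reads with PBS and 0, 3 and 0 with Migs, and MARCO 21 and 0, 4 and 0. Both were lower in every Mig library. CDH5 had 84 and 30, 72 and 59 and was lower with normo-Migs. CD79A had 10 and 7, 1 and 4 and was lower with hypo-Migs. STAB2, the remaining tested member, had 13 and 15, 10 and 5. Of 5 cholangiocyte markers, whose summed level was 1731 CPM with PBS and 531 to 573 CPM with Migs, KRT19 was at 11287 against 32 to 75 reads and KRT7 at 46770 against 16648 to 19191, lower with Migs as COL17A1 was. SOX9 and EPCAM of the same list were higher, at 7 against 327 to 441 and 578 against 1451 to 1834 reads. DCN and LUM stand both in the fibroblast list and in that of the proteoglycans. The part of these cell types in the collagen values was not tested.

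RefSeq promoters, the 250 bases before the start of each gene, were found for 32 of the 44 chains among 27305. They held a median of 16 CG dinucleotides, against 11 over all promoters. For the chains higher than PBS in all Mig libraries the median was 28 (range 7 to 38, 9 of 12 chains found), for those lower in all it was 21 (1 to 35, 4 chains), and for those past the criteria in none 18.5 (8 to 40, 6 of 8). For the chains that passed in some comparisons with PBS it was 11.5 (8 to 16, 4 of 5). For those not tested it was 11 (1 to 25, 9 of 15). The ranges overlap widely. On either strand, the motif GGGCGG was in 18 of the 32 collagen promoters and in 42.3% of all, CCAAT in 9 and in 33.0%, and TATAAA in 5 and in 11.1%. A match is a description of these letters, not a binding site.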

How the data were processed

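RNA-seq of MHCC-97H cells gave 1 library for each of the 4 conditions. The authors deposited a table of raw read counts per gene and a table of FPKM, in which they had divided reads by gene length and a library constant. The submitters' processing notes name CASAVA 1.8, fastp, HISAT2 2.0.5, featureCounts 1.5.0-p3 and hg38. The study's methods describe poly-T selection and random hexamers, and the labels name a SMARTER mRNA kit. Genes were matched by Ensembl identifier, and all 58735 were found in GENCODE 29. Chain classes follow the type number.

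The 19895 genes that reached 10 reads in any library were tested with edgeR 4.0.16 (R 4.3.3): TMM scaling over 4 libraries, prior count 2 for log2 fold changes, and the two-sided exact binomial test on the reads of a pair (a chi-square test above 10000 reads), adjusted by Benjamini-Hochberg. All 6 pairs of libraries were compared, with the study's thresholds on adjusted p and fold. Quasi-likelihood tests have no residual degrees of freedom here. Ratios of reads have exact intervals, CPM exact Poisson intervals and shares Wilson intervals at 95%. On data simulated from PBS and normo-Migs means, 200 of 200 changed genes were recovered with 1 false call among 17963 genes, and 199 of 200 with 96 false calls among 18002 genes at a coefficient of variation of 0.1. Alternatives were other scalings, filters, prior counts, assumed variation, DESeq2 1.42.0, FPKM and coding length. The members and gene lists were chosen with earlier results of these data known. Named were all chains tested and, of each other list, up to 4 genes with the most reads and the genes past the criteria in pairs of Mig libraries with a mean of at least 50 reads. Genes such as P3H3, P4HA3, DDR2, FMOD or PDGFRB were named after their values were seen.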

Additional observations from a re-analysis of the deposited data

How the results depend on the processing

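Counts of collagen chains past the criteria, higher and lower, were 13 and 4 with normo-Migs, 15 and 5 with hypo-Migs and 14 and 5 with CD147KO-Migs against PBS, and 0 and 1, 2 and 0, and 1 and 1 for hypo-Migs against normo-Migs, hypo-Migs against CD147KO-Migs and normo-Migs against CD147KO-Migs. DESeq2 with the 4 libraries taken as replicates called 0 chains in every pair and direction, with 9, 8 and 10 of 29 chains at an unadjusted p under 0.05 against PBS, beside 6.26%, 6.38% and 6.51% of all genes. This setting counts the difference of the PBS library as variation, so its 0 says little about the pairs of Mig libraries. An assumed coefficient of variation of 0.4 left 7 and 2, 7 and 1, and 8 and 2 against PBS and 0 in every pair of Mig libraries. For this and the settings that follow, the share of all genes past the criteria was not counted. At 0.1 the counts between Mig libraries that moved were 0 lower for hypo-Migs against normo-Migs, 1 higher for hypo-Migs against CD147KO-Migs and 0 lower for normo-Migs against CD147KO-Migs. A value estimated from the 3 Mig libraries (0.0747), chosen after seeing the data, gave 0 and 1 for the first and second of these. At least 10 reads in every library, which removes chains near 0, left 2 lower in each comparison with PBS, 1 higher for hypo-Migs against CD147KO-Migs, 0 lower for hypo-Migs against normo-Migs and 0 higher for normo-Migs against CD147KO-Migs. This filter also removes COL13A1, COL25A1 and COL26A1, with 4, 5 and 7 reads in the PBS library. They therefore leave the higher counts against PBS. The fold alone gave 2 higher for normo-Migs against CD147KO-Migs. On log2(FPKM + 1), fold alone, 8 and 1 passed with normo-Migs and 9 and 1 with hypo-Migs against PBS and 1 was lower with CD147KO-Migs. With a pseudocount of 0.1, 3 were lower with hypo-Migs and with CD147KO-Migs. On both FPKM scales 0 passed between Mig libraries where 1 or 2 had.

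Of 914 values of single chains under alternatives, 799 kept direction and side of the criteria, 108 fell below them, 2 rose past them and 5 changed sign. The 5 were COL12A1 against PBS: with normo-Migs -0.0026 with DESeq2 size factors and with DESeq2, -0.0346 with total reads and -0.0138 with protein-coding genes alone, and with hypo-Migs -0.009 with total reads. Of the 108 values that fell below, 48 came from DESeq2 and 26 from an assumed coefficient of variation of 0.4, of 71 values each. A prior count of 0.25 left all 71 the same. The fold alone did too, but it reuses the main log2 fold changes, so it could lose no call and turn no sign. Its 71 values are among the 799. Chains that were below the criteria and stayed so count among the 799. Ratios between chains depend on length. COL4A2 to COL4A1 was 1.88, 3.04, 2.84 and 3.02 in reads and 1.83, 2.97, 2.77 and 2.94 by coding length (chosen after seeing the data) for PBS, normo-Migs, hypo-Migs and CD147KO-Migs. COL5A2 to COL5A1 was 0.773, 0.827 and 0.891 in reads and 0.948, 1.01 and 1.09 by coding length in the Mig libraries. As a share of summed FPKM, collagen took 0.0479% with PBS and 0.0933%, 0.0941% and 0.0939% with Migs, and fibrillar chains 47.2%, 47.7% and 45.7% of that with Migs.

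No paired analysis was possible because each condition has 1 library, and leaving out a library removes its condition, so no replicate was left out. The pairs of Mig libraries are the comparisons without PBS. Depth limits the low chains: COL24A1, COL8A2 and COL9A2 have calls that rest on 3 reads or fewer in a library.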

Other observations

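Of the features whose symbol begins like that of a collagen chain, the pseudogenes and antisense genes were low. COL6A4P1, a transcribed type VI pseudogene, had 15, 23, 37 and 31 reads in PBS, normo-Migs, hypo-Migs and CD147KO-Migs. COL5A1-AS1, annotated antisense to COL5A1, had 1, 13, 8 and 12 reads, lowest with PBS as COL5A1 itself was. COL4A2-AS1 and COL4A2-AS2 had 0 to 7 reads, and COL18A1-AS1 and COL18A1-AS2 0 to 2. Without a statement on strand these reads cannot be assigned to one strand. COL4A3BP, a protein-coding gene named for binding to COL4A3 that encodes a ceramide transfer protein and no collagen chain, had 1363, 1153, 1435 and 1192 reads.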
